A study of Mus musculus with 16 samples.

Results

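The 9 genes described here belong to the CXC and CX3C chemokine system: the ligands Cxcl1, Cxcl9, Cxcl10, Cxcl12, Cxcl14, Cxcl16 and Cx3cl1, and the receptors Cxcr4 and Cx3cr1. They were taken from the gene count table by their GENCODE symbols on GRCm38 and are 9 of its 52636 genes. All 9 passed the filter on low counts, which left 17125 genes to test.

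Chemokines are small secreted proteins that draw leukocytes along a gradient by binding receptors coupled to G proteins, and the CXC and CX3C families are named for the spacing of their first cysteines. Most are free once secreted, whereas Cxcl16 and Cx3cl1 are made as transmembrane proteins whose chemokine domain can be shed by proteases. In the vessel wall, endothelial, smooth muscle and adventitial cells and resident macrophages are all known sources, and the receptors lie mainly on leukocytes.

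RNA was sequenced from whole descending thoracic aorta, the stretch of the aorta in the chest, of 16 mouse samples. The 4 groups were C57BL/6J with AngII-induced hypertension, C57BL/6J control, 129S6/SvEvTac with AngII-induced hypertension and 129S6/SvEvTac control, with 4 samples each. C57BL/6J and 129S6/SvEvTac are inbred strains, and AngII is angiotensin II, the hormone at the end of the renin cascade, which narrows arteries. The age and sex of the mice, the AngII dose and duration and what the controls received are given neither in the labels nor in the series text. Separate mice are not named in the labels either, so each p-value reflects how far these samples scatter, and that scatter may be technical.

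Library totals lay between 42116120 and 61381134 counts in 15 samples, and 129S6/SvEvTac AngII replicate 5 held 121573945. All 10 smooth muscle markers, which define the aortic media, were detected in every group. Their summed level was 13508 to 32233 CPM in C57BL/6J AngII libraries, against 42699 to 46225 CPM in C57BL/6J controls, and 39978 to 49922 CPM in 129S6/SvEvTac AngII libraries, against 42480 to 46056 CPM in 129S6/SvEvTac controls. CPM are library-size-scaled counts with TMM factors. They are shares of the RNA sequenced and not amounts per aorta. A higher CPM can come from more cells of a type, more RNA per cell or less RNA of other genes. These cannot be told apart in whole tissue.

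Of the 9 genes, 8 rose with AngII in C57BL/6J aortas and 1 rose in 129S6/SvEvTac aortas, and none fell in either strain. In C57BL/6J the exception was Cx3cr1, the receptor of Cx3cl1. In 129S6/SvEvTac the gene that rose was Cx3cl1. A call is an adjusted p below 0.05 in edgeR's quasi-likelihood test, with Benjamini-Hochberg adjustment over all 17125 genes. Of all tested genes, 38.9% were called in C57BL/6J (21.8% higher, 17.1% lower) and 12.2% in 129S6/SvEvTac (7.71% higher, 4.47% lower). The median log2 fold change of the 9 genes was 1.99 in C57BL/6J and 0.72 in 129S6/SvEvTac, beside 0.0092 and 0.0027 for all tested genes in the same order. The AngII effect itself was larger in C57BL/6J than in 129S6/SvEvTac for 4 of the 9 genes, Cxcl12, Cxcl14, Cxcl16 and Cxcr4, where 9.96% of all tested genes differed (5.34% higher in C57BL/6J, 4.62% lower).

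**Figure D1:**
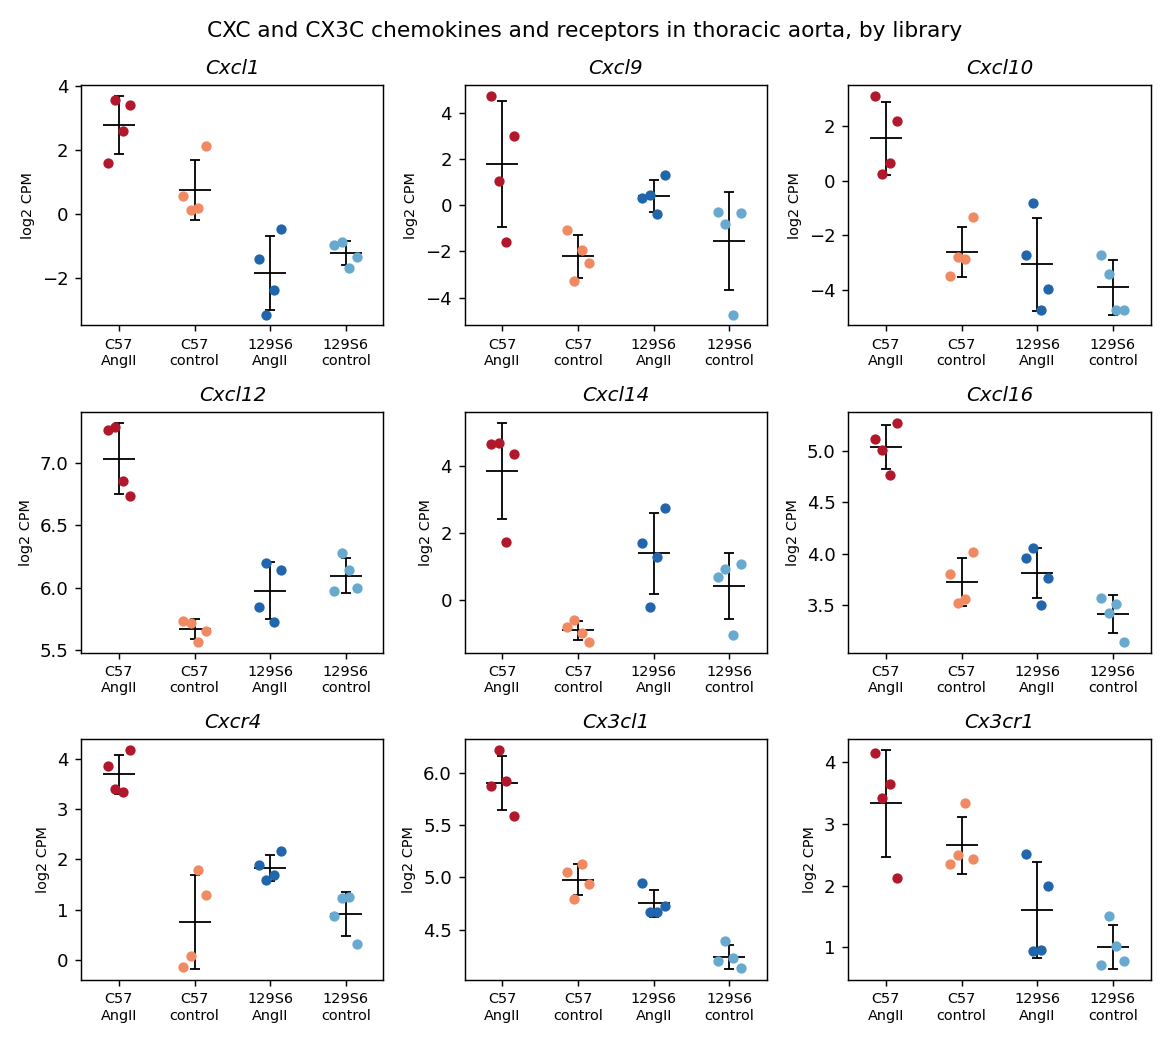
Level of each gene in every library, as log2 CPM (prior count 2) on the vertical axis, by group on the horizontal axis (C57 is C57BL/6J and 129S6 is 129S6/SvEvTac); points are libraries, the wide dash is the mean and bars are SD (n = 4). The C57BL/6J AngII libraries lie above all other libraries for Cxcl10, Cxcl12, Cxcl16, Cxcr4 and Cx3cl1, and Cx3cr1 overlaps between AngII and control in both strains.

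Per length of exon, the order of levels shifted between groups. In C57BL/6J AngII aortas Cxcl12 averaged 16.3 ± 3.18 RPKM (SD, n = 4) and Cx3cl1 15.4 ± 2.75 RPKM, followed by Cxcl16 at 11, Cxcl14 at 10.3, Cxcr4 at 7.32, Cxcl1 at 4.18, Cxcl9 at 3.09, Cx3cr1 at 2.50 and Cxcl10 at 1.75 RPKM, and each neighbour in that order overlapped the next. In C57BL/6J controls Cx3cl1 led at 8.05 RPKM, ahead of Cxcl12 at 6.22 and Cxcl16 at 4.41 RPKM with no overlap between these neighbours, and Cxcl14, Cxcl9 and Cxcl10 were last at 0.274, 0.0714 and 0.0689 RPKM. In 129S6/SvEvTac, AngII aortas kept the order Cxcl12 (7.76 RPKM), Cx3cl1 (6.87) and Cxcl16 (4.70) that the controls had (8.40, 4.80 and 3.53 RPKM). The other 6 genes stayed at or below 1.97 RPKM with AngII and at or below 1.06 RPKM in controls. The scale is CPM divided by the gene's summed exon length, so values can be compared between genes.

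The promoters of the ligands with the largest folds are shown because most of the members rose in C57BL/6J and because Cxcl9 and Cxcl10 are textbook targets of interferon and NF-kB signalling. RefSeq promoter windows on GRCm38.p6 matched 8 of the 9 symbols (not Cxcl16), and the 250 bases before each start were searched on both strands for 4 short motifs. An NF-kB-type stretch was written GGNNNTTCC, an IRF-type repeat GAAANNGAA, a STAT-type palindrome TTCNNNGAA and an AP-1-type motif TGANTCA, where N is any base. Of 32851 such windows of all genes, 15.7% held the NF-kB-type, 7.13% the IRF-type, 7.02% the STAT-type and 6.75% the AP-1-type letters. The windows printed are Cxcl1 (chr5:90890995-90891244, plus strand), Cxcl9 (chr5:92328080-92328329, minus strand), Cxcl10 (chr5:92348890-92349139, minus strand) and Cxcl14 (chr13:56296552-56296801, minus strand). Cxcl12 (chr6:117168285-117168534, plus strand), which also rose in C57BL/6J, is printed as a window without a match. Each is given 5′ to 3′ with motif matches in capitals.
Cxcl1: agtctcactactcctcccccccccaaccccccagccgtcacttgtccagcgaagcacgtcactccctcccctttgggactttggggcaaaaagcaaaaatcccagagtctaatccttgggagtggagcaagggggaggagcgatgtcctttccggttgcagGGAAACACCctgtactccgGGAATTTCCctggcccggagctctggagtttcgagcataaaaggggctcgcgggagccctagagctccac
Cxcl9: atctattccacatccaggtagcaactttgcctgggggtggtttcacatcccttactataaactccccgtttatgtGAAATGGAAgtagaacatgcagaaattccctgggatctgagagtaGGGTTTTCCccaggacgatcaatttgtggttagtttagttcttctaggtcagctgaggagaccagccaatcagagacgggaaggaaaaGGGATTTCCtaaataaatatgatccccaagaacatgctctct
Cxcl10: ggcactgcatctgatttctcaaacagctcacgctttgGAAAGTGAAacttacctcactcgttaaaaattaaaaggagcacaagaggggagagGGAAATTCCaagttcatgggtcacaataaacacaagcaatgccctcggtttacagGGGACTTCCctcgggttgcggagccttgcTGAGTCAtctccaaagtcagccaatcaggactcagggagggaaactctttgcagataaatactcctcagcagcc
Cxcl14: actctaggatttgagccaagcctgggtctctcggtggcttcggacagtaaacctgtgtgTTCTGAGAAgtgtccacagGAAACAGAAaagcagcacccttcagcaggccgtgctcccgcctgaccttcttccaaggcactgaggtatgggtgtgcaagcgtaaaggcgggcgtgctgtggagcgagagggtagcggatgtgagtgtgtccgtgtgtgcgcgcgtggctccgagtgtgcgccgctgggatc
Cxcl12: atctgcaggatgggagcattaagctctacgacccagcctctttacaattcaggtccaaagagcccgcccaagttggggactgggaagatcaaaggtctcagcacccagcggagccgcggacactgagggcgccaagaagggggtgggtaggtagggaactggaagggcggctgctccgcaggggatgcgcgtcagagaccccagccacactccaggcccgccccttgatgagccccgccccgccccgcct
The NF-kB-type letters occurred in 4 of the 8 windows, with a pair of matches each in Cxcl1, Cxcl9 and Cxcl10 and a single one in Cx3cl1. The IRF-type letters occurred in 3 windows, those of Cxcl9, Cxcl10 and Cxcl14, the STAT-type letters in Cxcl14 and the AP-1-type letters in Cxcl10. The windows of Cxcl12, Cxcr4 and Cx3cr1 held none of the 4. Matches of different motifs did not overlap. A match describes letters and is not a measured binding site, and an empty window says only that these letters are not in these 250 bases.

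Cxcl1 (ENSMUSG00000029380.11, chromosome 5, 90891241 to 90893115, plus strand), a neutrophil attractant that acts through Cxcr2, rose in C57BL/6J. It stood at 2.96, 11.7, 6.06 and 10.6 CPM in C57BL/6J AngII replicates 1, 2, 3 and 5, against 1.42, 1.06, 1.10 and 4.30 CPM in C57BL/6J control replicates 1, 2, 3 and 5. The groups overlapped at one point, where control replicate 5 exceeded AngII replicate 1. The log2 fold change was 1.99 ± 0.59 (± SE, 4 libraries per group, with an adjusted p of 0.0145), and without control replicate 2 it was 1.76 and no longer called (adjusted p = 0.0511). In 129S6/SvEvTac the level was 0.338, 0.0757, 0.154 and 0.690 CPM in AngII replicates 1, 2, 4 and 5, against 0.475, 0.508, 0.274 and 0.355 CPM in control replicates 1 to 4. These ranges overlapped, with a log2 fold change of -0.27 ± 0.64 (adjusted p = 0.851), which turned to 0.013 without AngII replicate 2 and was -1.09 without AngII replicate 5. The difference between the strains' AngII effects was 2.25 ± 0.86 and was not called (adjusted p = 0.113). It was called in 2 of 16 omissions of a single library, without C57BL/6J control replicate 5 (2.96, adjusted p = 0.0389) or 129S6/SvEvTac AngII replicate 5 (3.08, adjusted p = 0.0414). Of 11 other settings 3 called it: DESeq2 (2.31, adjusted p = 0.0443), a replicate block (3.15, adjusted p = 0.0258) and 2 libraries left out together (3.36, adjusted p = 0.0284).

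Cxcl9 (ENSMUSG00000029417.9, chromosome 5, 92321347 to 92328079, minus strand) and Cxcl10 (ENSMUSG00000034855.13, chromosome 5, 92346638 to 92348889, minus strand) lie beside each other and encode interferon-inducible attractants of Cxcr3-bearing T and NK cells. Both rose in C57BL/6J and both varied widely between its AngII libraries. Cxcl9 stood at 26.9, 2.01, 0.291 and 8.01 CPM in C57BL/6J AngII replicates 1, 2, 3 and 5, against 0.436, 0.0647, 0.221 and 0.141 CPM in C57BL/6J control replicates 1, 2, 3 and 5. AngII replicate 3 lay within the controls' range. The log2 fold change of Cxcl9 was 5.39 ± 1.20 (± SE, with an adjusted p of 0.0024), and 3.99 without AngII replicate 1. Cxcl10 stood at 8.57, 1.15, 1.54 and 4.54 CPM in the same AngII libraries, against 0.0503, 0.108, 0.10 and 0.362 CPM in the same controls. Every AngII library was above every control, and the log2 fold change was 4.66 ± 1.11 (adjusted p = 0.00378), or 3.96 without AngII replicate 1 and 5.48 without control replicate 5. Controls held 3 to 26 counts of Cxcl9 and 3 to 18 of Cxcl10 per library, so the control level under both folds rests on few counts.

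In 129S6/SvEvTac neither gene was called. Cxcl9 stood at 1.20, 1.34, 0.725 and 2.42 CPM in AngII replicates 1, 2, 4 and 5, against 0.791, 0.527, 0 and 0.754 CPM in control replicates 1 to 4, with a log2 fold change of 1.47 ± 1.04 (adjusted p = 0.42). AngII replicate 4 lay below 2 of the controls. Cxcl10 stood at 0.113, 0.530, 0 and 0.0262 CPM in the AngII libraries, against 0.113, 0.0564, 0 and 0 CPM in the controls, a log2 fold change of 1.82 ± 1.27 (adjusted p = 0.41). That value came from AngII replicate 2, and without this library it was -0.0052. The differences of AngII effects, 3.92 ± 1.52 for Cxcl9 (adjusted p = 0.117) and 2.84 ± 1.75 for Cxcl10 (adjusted p = 0.339), were not called as reported, and both moved with the setting. That of Cxcl9 was 2.55 without C57BL/6J AngII replicate 1 (adjusted p = 0.303), 0.19 with the score of the adipocyte markers described next as a covariate (adjusted p = 0.948), and 4.34, and called, without C57BL/6J AngII replicate 3 (adjusted p = 0.0291). That of Cxcl10 was 4.65 without 129S6/SvEvTac AngII replicate 2 (adjusted p = 0.101) and 1.88 without 129S6/SvEvTac control replicate 1 (adjusted p = 0.677).

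Fat and interferon-stimulated genes varied between the C57BL/6J AngII libraries alongside these ligands. Of 12 adipocyte markers 11 rose in C57BL/6J and none fell, all were detected in every group, and Adipoq rose by 4.0 ± 0.89 (± SE, with an adjusted p of 0.00228). Their summed level was 3885, 544, 240 and 1669 CPM in C57BL/6J AngII replicates 1, 2, 3 and 5, against 198 to 396 CPM in C57BL/6J controls, and 397 to 1479 CPM in 129S6/SvEvTac AngII libraries, against 255 to 762 CPM in 129S6/SvEvTac controls. Cxcl9 ranked the 4 C57BL/6J AngII libraries in the order of these sums, whereas Cxcl10 ranked them in the order of the score of 22 interferon-stimulated genes, which was 4.39, 2.75, 2.85 and 4.0 mean log2 CPM in replicates 1, 2, 3 and 5, against 2.13 to 2.46 in C57BL/6J controls. These orders of 4 libraries were not particular to the lists named. The scores of the dendritic cell markers and of interferon gamma, TNF and interleukin 1 signalling ranked the libraries as Cxcl9 did. That of the skeletal and cardiac muscle markers ranked them as Cxcl10 did. The part of any of these lists in the result was not tested. With the adipocyte score as a covariate, 5 of the 9 genes stayed called for AngII against control in C57BL/6J, namely Cxcl12, Cxcl14, Cxcl16, Cxcr4 and Cx3cl1. Cxcl9 was then 1.29 (adjusted p = 0.273), Cxcl10 3.81 (adjusted p = 0.0632) and Cxcl1 1.89 (adjusted p = 0.0813). The score itself was 2.80 to 7.09 in C57BL/6J AngII libraries, against 2.07 to 3.74 in C57BL/6J controls, so this covariate can lower calls for any gene. The count of 5 was not set against calls over all genes.

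**Figure D2:**
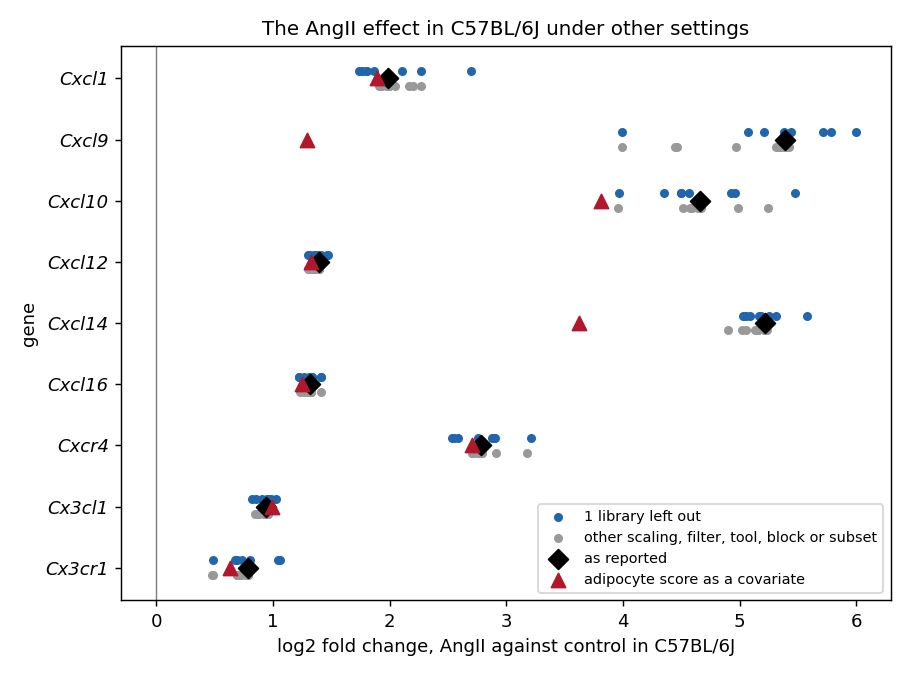
Log2 fold change of AngII against control in C57BL/6J (horizontal axis) for each gene (rows) as reported, with the adipocyte score as a covariate, with 1 library left out and under the other settings. Every value is above 0, and the adipocyte covariate moved Cxcl9 from 5.39 to 1.29 and Cxcl14 from 5.22 to 3.63.

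Cxcl12 (ENSMUSG00000061353.11, chromosome 6, 117168535 to 117181367, plus strand), the stromal ligand of Cxcr4, separated the C57BL/6J groups. It stood at 154, 157, 116 and 106 CPM in C57BL/6J AngII replicates 1, 2, 3 and 5, against 53.2, 52.6, 47.3 and 50.1 CPM in C57BL/6J control replicates 1, 2, 3 and 5, with no overlap and a log2 fold change of 1.39 ± 0.14 (± SE, with an adjusted p of 3.64e-06). The 129S6/SvEvTac levels were 57.4, 73.2, 52.8 and 70.4 CPM in AngII replicates 1, 2, 4 and 5, against 62.8, 77.5, 70.4 and 63.8 CPM in control replicates 1 to 4. Those ranges overlapped, with a log2 fold change of -0.11 ± 0.13 (adjusted p = 0.657). The effects differed by 1.5 ± 0.19 (adjusted p = 0.000795).

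Cxcl14 (ENSMUSG00000021508.11, chromosome 13, 56288643 to 56296551, minus strand), made by epithelial and stromal cells in many resting tissues, had one of the largest folds of the set. It stood at 25.4, 25.8, 3.27 and 20.4 CPM in C57BL/6J AngII replicates 1, 2, 3 and 5, against 0.536, 0.626, 0.461 and 0.382 CPM in C57BL/6J control replicates 1, 2, 3 and 5. AngII replicate 3 was far below the other 3 yet above every control, and the log2 fold change was 5.22 ± 0.73 (± SE, with an adjusted p of 5.99e-05). In 129S6/SvEvTac it stood at 3.25, 0.833, 2.42 and 6.68 CPM in AngII replicates 1, 2, 4 and 5, against 1.56, 1.84, 0.443 and 2.09 CPM in control replicates 1 to 4, a log2 fold change of 1.17 ± 0.62 (adjusted p = 0.261) with overlap, or 0.53 without AngII replicate 5 (adjusted p = 0.677). The effects differed by 4.05 ± 0.92 (adjusted p = 0.0142).

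The transmembrane ligands had smaller folds and little spread. Cxcl16 (ENSMUSG00000018920.11, chromosome 11, 70453983 to 70459984, minus strand), which binds Cxcr6 and also takes up oxidised lipoprotein, stood at 34.8, 32.1, 27.1 and 38.6 CPM in C57BL/6J AngII replicates 1, 2, 3 and 5, against 13.9, 11.4, 11.8 and 16.2 CPM in C57BL/6J control replicates 1, 2, 3 and 5. The groups did not overlap, with a log2 fold change of 1.32 ± 0.15 (± SE, with an adjusted p of 1.29e-05). Its 129S6/SvEvTac levels were 15.5, 16.5, 11.3 and 13.5 CPM in AngII replicates 1, 2, 4 and 5, against 11.8, 10.7, 11.4 and 8.78 CPM in control replicates 1 to 4. AngII replicate 4 lay within the controls, the log2 fold change was 0.41 ± 0.15 (adjusted p = 0.0923), and the effects differed by 0.91 ± 0.21 (adjusted p = 0.0168). That difference passed the threshold in all 16 omissions of a single library, and was 0.89 with an adjusted p of 0.0512 when C57BL/6J AngII replicate 1 and 129S6/SvEvTac AngII replicate 5 were left out together. Of the exon bases of Cxcl16, 18.3% overlap Zmynd15 on the opposite strand, so its count is uncertain, as are those of Cxcl10 (5.91% shared with Art3) and Cx3cr1 (1.73% shared with Gm33858).

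Cx3cl1 (ENSMUSG00000031778.13, chromosome 8, 94772009 to 94782427, plus strand), fractalkine, a ligand of endothelial and smooth muscle cells that captures monocytes, rose in both strains. It stood at 58.9, 74.5, 60.5 and 48.2 CPM in C57BL/6J AngII replicates 1, 2, 3 and 5, against 33.1, 27.8, 35.0 and 30.6 CPM in C57BL/6J control replicates 1, 2, 3 and 5, a log2 fold change of 0.94 ± 0.12 (± SE, with an adjusted p of 2.83e-05). Levels in 129S6/SvEvTac were 30.8, 25.4, 25.4 and 26.4 CPM in AngII replicates 1, 2, 4 and 5, against 18.3, 21, 18.7 and 17.5 CPM in control replicates 1 to 4, a log2 fold change of 0.52 ± 0.12 (adjusted p = 0.011). In each strain every AngII library was above every control. The effects differed by 0.42 ± 0.17, which was not called (adjusted p = 0.13). With scaling by library size alone, without TMM factors, the 129S6/SvEvTac value was 0.36 and lost its call (adjusted p = 0.0519).

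Cxcr4 (ENSMUSG00000045382.6, chromosome 1, 128588199 to 128592293, minus strand), the receptor of Cxcl12 on leukocytes and progenitors, rose in C57BL/6J. It stood at 14.3, 10.5, 10.1 and 18 CPM in C57BL/6J AngII replicates 1, 2, 3 and 5, against 0.871, 1.01, 3.41 and 2.41 CPM in C57BL/6J control replicates 1, 2, 3 and 5, with no overlap and a log2 fold change of 2.78 ± 0.39 (± SE, with an adjusted p of 5.74e-05). In 129S6/SvEvTac it stood at 3.68, 2.98, 3.16 and 4.45 CPM in AngII replicates 1, 2, 4 and 5, against 1.79, 2.31, 2.34 and 1.20 CPM in control replicates 1 to 4. Here too every AngII library was above every control, but the log2 fold change of 0.90 ± 0.37 was not called (adjusted p = 0.136), and it was called when only these groups were fitted (0.89, adjusted p = 0.0411). The effects differed by 1.88 ± 0.52 (adjusted p = 0.0344). That call was lost in 10 of 16 omissions of a single library, over which the difference was 1.65 to 2.32 and the adjusted p 0.0136 to 0.0722. The libraries were C57BL/6J AngII replicates 1 and 5, C57BL/6J control replicates 1 and 2, 129S6/SvEvTac AngII replicates 1, 2 and 4, and 129S6/SvEvTac control replicates 1, 2 and 3. It was also lost with the adipocyte covariate (1.82, adjusted p = 0.0797), with a muscle marker covariate (1.82, adjusted p = 0.0525), and without C57BL/6J AngII replicate 1 and 129S6/SvEvTac AngII replicate 5 together (2.00, adjusted p = 0.0641).

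Cx3cr1 (ENSMUSG00000052336.7, chromosome 9, 119901616 to 120069879, minus strand), the fractalkine receptor of monocytes and resident macrophages, was the one gene not called in C57BL/6J. It stood at 17.7, 10.6, 12.5 and 4.32 CPM in C57BL/6J AngII replicates 1, 2, 3 and 5, against 5.06, 5.61, 10.1 and 5.37 CPM in C57BL/6J control replicates 1, 2, 3 and 5. AngII replicate 5 lay below all 4 controls and the other 3 AngII libraries above them. The log2 fold change was 0.79 ± 0.41 (± SE, with an adjusted p of 0.145), and without AngII replicate 5 it was 1.05 and called (adjusted p = 0.0399), whereas without AngII replicate 1 it was 0.48 (adjusted p = 0.401). In 129S6/SvEvTac it stood at 5.64, 1.89, 1.91 and 3.93 CPM in AngII replicates 1, 2, 4 and 5, against 1.61, 2.80, 2.00 and 1.69 CPM in control replicates 1 to 4, a log2 fold change of 0.72 ± 0.42 (adjusted p = 0.309) with overlap, or 0.34 without AngII replicate 1 (adjusted p = 0.688). The difference of effects was 0.06 ± 0.59 (adjusted p = 0.968), and its sign turned under several settings.

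**Figure D3:**
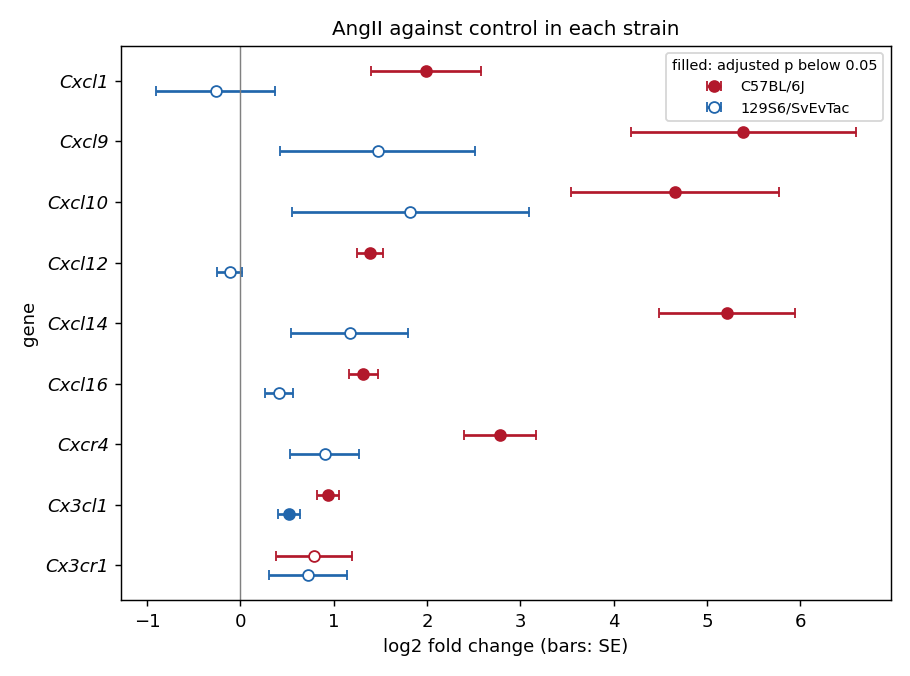
Log2 fold change of AngII against control in C57BL/6J and in 129S6/SvEvTac (horizontal axis, bars are SE) for each gene (rows); filled points have an adjusted p below 0.05. In C57BL/6J 8 genes are filled, all to the right of 0, and in 129S6/SvEvTac only Cx3cl1 at 0.52 is.

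Macrophage and monocyte markers were higher in the same C57BL/6J AngII libraries. Of 16 markers 13 rose in C57BL/6J and none in 129S6/SvEvTac, 9 had a larger effect in C57BL/6J, and all were detected in every group. Their summed level was 1328 to 2411 CPM in C57BL/6J AngII libraries, against 568 to 703 CPM in C57BL/6J controls, and 431 to 664 CPM in 129S6/SvEvTac AngII libraries, against 340 to 507 CPM in 129S6/SvEvTac controls. Their part in the rise of the chemokine genes was not tested. A ratio chosen after the values were seen sets the receptors against these markers. Per 1000 CPM of the markers, Cxcr4 was 6.57 to 7.61 CPM in C57BL/6J AngII libraries, against 1.5 to 4.85 CPM in C57BL/6J controls, and 5.54 to 6.92 CPM in 129S6/SvEvTac AngII libraries, against 3.52 to 5.25 CPM in 129S6/SvEvTac controls, without overlap in either strain. Cx3cr1 per 1000 CPM was 1.79 to 9.39 CPM in C57BL/6J AngII libraries, against 8.71 to 14.3 CPM in C57BL/6J controls, and 4.01 to 8.49 CPM in 129S6/SvEvTac AngII libraries, against 3.17 to 5.88 CPM in 129S6/SvEvTac controls. These ranges overlapped in both strains, and the mean was lower with AngII in C57BL/6J and higher with AngII in 129S6/SvEvTac. C57BL/6J AngII replicate 5 had the highest marker sum and the highest Cxcr4 of all 16 libraries, with the lowest Cx3cr1 of its group.

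**Figure D4:**
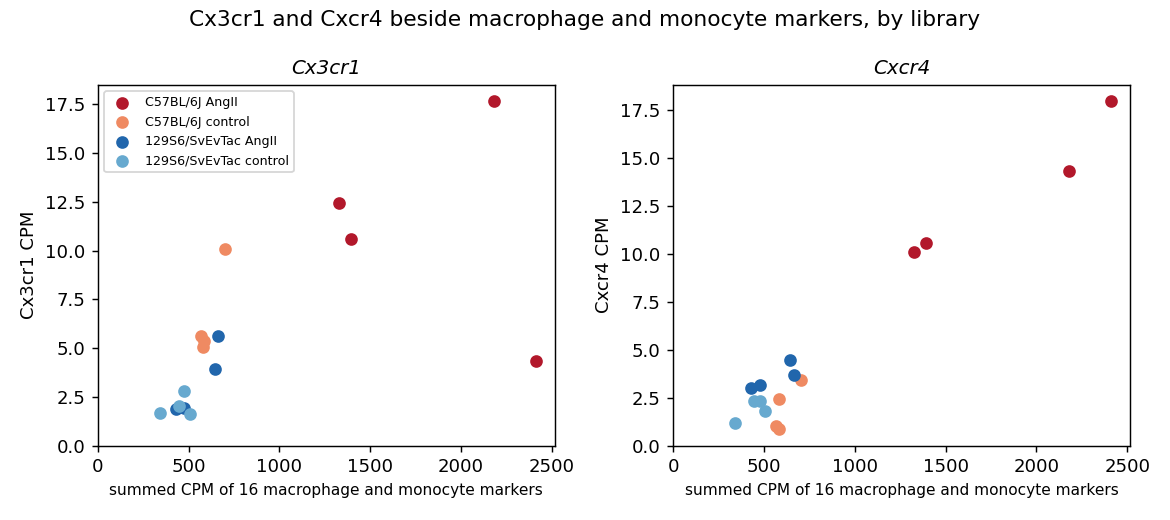
Cx3cr1 and Cxcr4 in CPM (vertical axes) against the summed CPM of 16 macrophage and monocyte markers (horizontal axes); each point is a library, coloured by group. The C57BL/6J AngII libraries lie at marker sums of 1328 to 2411 CPM, with Cxcr4 at 10.1 CPM or more and one library at 4.32 CPM of Cx3cr1.

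With AngII, 8 of the 9 genes were higher in C57BL/6J than in 129S6/SvEvTac, all but Cxcl9, and in controls 3 were, Cxcl1, Cx3cl1 and Cx3cr1. None was lower at the threshold. Of all tested genes 31.3% were called between the strains with AngII (16.8% higher in C57BL/6J, 14.6% lower) and 10.4% in controls (5.35% higher, 5.06% lower). The median log2 fold change of the 9 genes was 1.89 with AngII and 0.32 in controls, beside 0.020 and -0.00099 for all tested genes. These comparisons use the same libraries as the AngII effects above. Cxcl10 with AngII was 4.65 ± 1.12 (± SE, with an adjusted p of 0.00518), Cxcl14 2.49 ± 0.63 (adjusted p = 0.00696), Cxcr4 1.89 ± 0.37 (adjusted p = 0.00128), Cxcl16 1.23 ± 0.15 (adjusted p = 2.79e-05) and Cxcl12 1.07 ± 0.14 (adjusted p = 3.33e-05). Of these only Cxcl14 overlapped, where C57BL/6J AngII replicate 3 (3.27 CPM) lay below 129S6/SvEvTac AngII replicate 5 (6.68 CPM). Cxcl9 with AngII was 2.70 ± 1.03 (adjusted p = 0.0591), and it was called without C57BL/6J AngII replicate 2 (3.04, adjusted p = 0.0446) or 3 (3.11, adjusted p = 0.0123). Leaving out C57BL/6J AngII replicate 1 gave 1.31 (adjusted p = 0.355), and the adipocyte covariate gave 1.21 (adjusted p = 0.124).

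Cxcl1, Cx3cl1 and Cx3cr1 were higher in C57BL/6J under both treatments. For Cxcl1 every C57BL/6J library exceeded every 129S6/SvEvTac library of the same treatment, with a log2 fold change of 4.54 ± 0.67 with AngII (± SE, with an adjusted p of 0.000131) and 2.28 ± 0.63 in controls (adjusted p = 0.0286). The control value was not called in 5 of 8 omissions of a single library, without C57BL/6J control replicate 5 (1.56, adjusted p = 0.123) and without any of the 4 129S6/SvEvTac controls (2.14 to 2.41, adjusted p 0.0602 to 0.0839). Its call was also lost in 4 of 12 other settings. These were voom (1.89, adjusted p = 0.0898), a replicate block (1.62, adjusted p = 0.0888) and the adipocyte (2.37, adjusted p = 0.0714) and muscle marker covariates (2.18, adjusted p = 0.0818). Cx3cl1 was higher in C57BL/6J at 1.16 ± 0.12 with AngII (adjusted p = 4.98e-06) and 0.75 ± 0.12 in controls (adjusted p = 0.000571), with no overlap in either. Cx3cr1 was higher at 1.75 ± 0.42 with AngII (adjusted p = 0.00529), where C57BL/6J replicate 5 fell within the 129S6/SvEvTac range, and at 1.69 ± 0.43 in controls (adjusted p = 0.0181) with no overlap. The control value lost its call without C57BL/6J replicate 3 (1.40, adjusted p = 0.0623), 129S6/SvEvTac replicate 1 (1.59, adjusted p = 0.0554) or 129S6/SvEvTac replicate 4 (1.60, adjusted p = 0.056).

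In controls the remaining 6 genes were not called. Cxcl12 in C57BL/6J controls lay below every 129S6/SvEvTac control, with a log2 fold change of -0.43 ± 0.13 (± SE, with an adjusted p of 0.0523), and 8 of 12 other settings called it, at an adjusted p of 0.00387 to 0.139 over the 12. Cxcl14 was -1.56 ± 0.67 (adjusted p = 0.176) with overlap and was called when only the controls were fitted (-1.57, adjusted p = 0.0398), whereas with the adipocyte covariate it was -0.35 (adjusted p = 0.799). Cxcl9 was -1.22 ± 1.13 (adjusted p = 0.599), Cxcl10 1.81 ± 1.256 (adjusted p = 0.447; 0.97 to 2.80 with a library left out), Cxcl16 0.32 ± 0.15 (adjusted p = 0.224) and Cxcr4 0.01 ± 0.37 (adjusted p = 0.993), each with overlap.

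**Figure D5:**
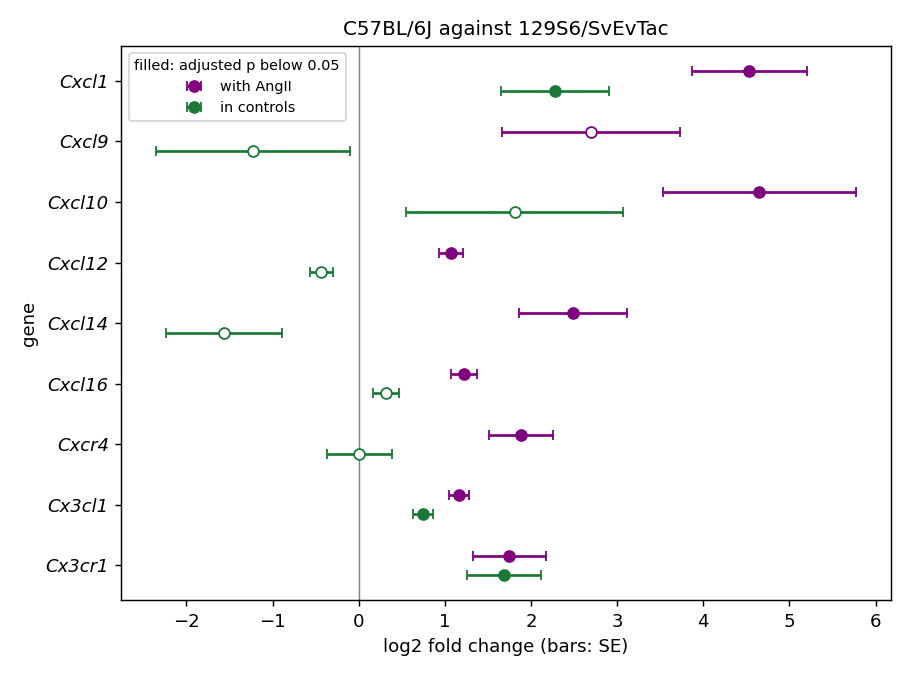
Log2 fold change of C57BL/6J against 129S6/SvEvTac with AngII and in controls (horizontal axis, bars are SE) for each gene (rows); filled points have an adjusted p below 0.05. With AngII 8 genes are filled and all 9 lie to the right of 0, whereas in controls Cxcl9, Cxcl12 and Cxcl14 lie to the left of 0, unfilled.

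A list of 16 further CXC ligands, receptors and decoy receptors was read beside these genes, of which 12 were tested and Cxcl11, Cxcl15, Cxcl17 and Cxcr1 were too low. In C57BL/6J 4 rose with AngII and none fell (median 0.83), and in 129S6/SvEvTac none was called (median -0.02). Beside this and the other lists, 21.8% of all tested genes rose with AngII in C57BL/6J and 7.71% in 129S6/SvEvTac. Between strains 16.8% were higher in C57BL/6J with AngII and 5.35% in controls. No list was tested against these shares. Cxcl3, like Cxcl1 a neutrophil attractant, had 130 counts over the C57BL/6J AngII libraries and none over the C57BL/6J controls, at least 41.7-fold higher against a floor of 3 counts over the group (adjusted p = 0.00287). Cxcl2, of the same kind, stood at 0.261, 1.62, 1.58 and 1.39 CPM in C57BL/6J AngII replicates 1, 2, 3 and 5, against 0.0670 to 0.108 CPM in C57BL/6J controls, a log2 fold change of 3.67 ± 0.98 (± SE, with an adjusted p of 0.00808). Pf4, platelet factor 4, rose by 0.67 ± 0.20 (adjusted p = 0.016). Cxcr3, the receptor of Cxcl9 and Cxcl10, rose by 1.82 ± 0.63 (adjusted p = 0.0321), and AngII replicate 3 lay within the controls.

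The other receptors of the members' ligands were not called with AngII in C57BL/6J. Ackr3, the decoy receptor of Cxcl12, averaged 106 ± 36.8 CPM in C57BL/6J AngII libraries, against 68.4 ± 5.85 CPM in C57BL/6J controls (SD, n = 4 each), a log2 fold change of 0.64 ± 0.27 (± SE, with an adjusted p of 0.0694). Cxcr2, the receptor of Cxcl1, had an adjusted p of 0.53, and Cxcr6, the receptor of Cxcl16, one of 0.673. Between strains with AngII, 4 of the 12 were higher in C57BL/6J (median 2.13): Cxcl2 by 5.62 ± 1.12 (adjusted p = 0.00133), Pf4 by 1.75 ± 0.21 (adjusted p = 1.82e-05), Cxcl3 at least 49.4-fold (adjusted p = 0.00356) and Cxcl5, which also attracts neutrophils, at least 63.5-fold (adjusted p = 0.0154), the last pair having no counts in 129S6/SvEvTac AngII libraries. In controls 2 were higher, Pf4 by 0.87 ± 0.20 (adjusted p = 0.0107) and Ppbp, a platelet chemokine, by 3.68 ± 1.05 (adjusted p = 0.0356). Ppbp stood at 0.503, 0.669, 13.8 and 3.52 CPM in C57BL/6J control replicates 1, 2, 3 and 5, against 0.746, 0.414, 0.190 and 0.0887 CPM in 129S6/SvEvTac control replicates 1 to 4, so 2 libraries carried its level. No gene of the list passed the test of the difference of effects.

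Enzymes that shed or trim these ligands were read as a list of 8, of which 7 were tested and Ctsg was too low. In C57BL/6J 4 rose with AngII and none fell (median 0.49). Adam10 and Adam17, the sheddases of Cxcl16 and Cx3cl1, rose by 0.79 ± 0.13 (± SE, with an adjusted p of 0.000177) and 0.49 ± 0.13 (adjusted p = 0.00803). Dpp4, which trims Cxcl9, Cxcl10 and Cxcl12, rose by 1.39 ± 0.39 (adjusted p = 0.0104), and Mmp2, a gelatinase that can cleave Cxcl12, by 1.88 ± 0.20 (adjusted p = 7.65e-06). In 129S6/SvEvTac Mmp2 rose by 0.83 ± 0.20 (adjusted p = 0.0129) and Rhbdf1, a partner of Adam17, by 0.38 ± 0.11 (adjusted p = 0.0287), while Mmp9 fell by 1.15 ± 0.31 (adjusted p = 0.0264). Only Mmp2 of the 7 passed the difference of effects, at 1.05 ± 0.28 (adjusted p = 0.0276). Rhbdf2, the other partner of Adam17, was higher in C57BL/6J in controls, by 1.01 ± 0.11 (adjusted p = 9.27e-06), and with AngII, by 0.61 ± 0.11 (adjusted p = 0.000478). With AngII Mmp9 was higher in C57BL/6J by 1.71 ± 0.32 (adjusted p = 0.000791), Mmp2 by 0.87 ± 0.20 (adjusted p = 0.0035) and Adam10 by 0.46 ± 0.13 (adjusted p = 0.0109).

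Genes of interferon gamma, TNF and interleukin 1 signalling, which act upstream of several of these ligands, rose for 9 of 15 tested in C57BL/6J and for 1 of 15, Ifngr2, in 129S6/SvEvTac (0.28 ± 0.07, SE, adjusted p = 0.0222). Jak1 in C57BL/6J rose by 0.42 ± 0.07 (adjusted p = 0.000171), Tnfrsf1a, a TNF receptor, by 0.56 ± 0.09 (adjusted p = 0.000254) and Il1r1, the interleukin 1 receptor, by 0.48 ± 0.10 (adjusted p = 0.00139). Il1r1 alone of the list had a different effect between strains, at 0.57 ± 0.14 (adjusted p = 0.0207). Ifng itself (named because of its value, outside the rule) was not tested, with 13 counts in one C57BL/6J AngII library and none in any other of the 16. Of 22 interferon-stimulated genes, 15 rose in C57BL/6J and none fell (median 1.11). Those with the lowest p were Irgm1 at 0.97 ± 0.16 (adjusted p = 0.000267) and Oas1a at 3.01 ± 0.59 (adjusted p = 0.000902). In 129S6/SvEvTac 1 rose, Mx1, with no counts in its controls (adjusted p = 0.0346; median -0.10). The effect was larger in C57BL/6J for 3, Bst2, Oasl2 and Irf7. Between strains with AngII 19 of the 22 were higher in C57BL/6J, and in controls 1 was.

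Markers of the cells that could carry the ligands and receptors moved unevenly with AngII in C57BL/6J. Dendritic cell markers rose for 6 of 7, among them Cd209a at 4.04 ± 0.41 (± SE, with an adjusted p of 6.91e-05), and summed to 253 to 878 CPM in C57BL/6J AngII libraries, against 96.4 to 113 CPM in C57BL/6J controls. That list held Flt3, Zbtb46, Clec9a, Cd209a, H2-Ab1, H2-Eb1 and H2-Aa. The H2 genes are MHC class II genes, and which cells carried them cannot be told in whole tissue. Cd209a had no counts in either 129S6/SvEvTac group and Clec9a none with AngII there. Of 10 T and NK cell markers tested only Trac rose (2.68 ± 1.0, adjusted p = 0.0455), and the list summed to 2.93 to 10.9 CPM in C57BL/6J AngII libraries, against 1.68 to 4.01 CPM in C57BL/6J controls, where Ncr1 had no counts. No neutrophil marker of 5 tested was called, and their list summed to 9.05 to 13.5 CPM with AngII, against 1.38 to 33.6 CPM in controls, with Camp at 0 counts with AngII. Adventitial fibroblast markers rose for 6 of 10, summing to 38443 to 56859 CPM with AngII, against 8507 to 10263 CPM in controls, and smooth muscle markers fell for 9 of 10. Of 12 endothelial markers Kdr (3.39 ± 0.66, adjusted p = 0.000864) and Cdh5 rose and Egfl7 fell. In 129S6/SvEvTac the called markers were H2-Eb1 among dendritic cell markers, 4 fibroblast markers and 3 endothelial markers, all higher. Their part in the chemokine results was not tested. No B cell marker of 4 and no skeletal or cardiac muscle marker of 6 was called in any comparison, and among 5 Schwann cell markers S100b rose in C57BL/6J.

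The genes whose pattern over the 16 libraries was most like that of each member were taken by the smallest root mean square difference of centred log2 CPM among 14018 named protein-coding genes. Cxcr4 was nearest to Ptpn7 (0.338), Itgb2 (0.371) and Lyn (0.395), which are leukocyte genes. Cxcl16 was nearest to Lima1 (0.139), Cx3cl1 to Reep4 (0.153) and Cxcl12 to Bmp2k (0.177). Cxcl9 was nearest to Hp (0.890), the adipocyte gene Adipoq (0.956) and Robo4 (0.957), and Cxcl10 to Slamf7 (1.07), Ccl7 (1.10) and Oas1a (1.10). Cxcl1 was nearest to Pdpn (0.748), Cxcl14 to Robo4 (0.721) and Cx3cr1 to Ddit4l (0.521). The difference is in log2 units and is larger for members that vary more, so it ranks genes for one member and not members against each other.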

How the data were processed

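Whole descending thoracic aorta of 4 groups was profiled by RNA sequencing, 16 libraries in all. Per the labels' protocols, the authors isolated total RNA with a column kit, aligned reads to GRCm38 (mm10) with HISAT2 and estimated abundance with StringTie on Gencode. The authors deposited estimated counts per gene, already whole numbers, and every column of per-sample values was used (0 left out). DESeq2 1.26.0 and R 3.6.2 appear in the submitters' processing notes with no role given. Neither the Gencode release nor strandedness is stated, and the counts of Cxcl16, Cxcl10 and Cx3cr1 are therefore called uncertain above. Exon overlaps of genes in the other lists were not marked. Among them are Itgam (68.7% of exon bases shared with Gm49368) and Tagln (62.4% shared with Gm48529). GRCm38 is the C57BL/6J genome, and whether alignment differed between strains was not tested.

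Names and exon lengths came from GENCODE M21 (52489 of 52636 genes matched). In R 4.3.3, edgeR 4.0.16 kept genes by filterByExpr with a minimum count of 10, computed TMM factors and ran its robust quasi-likelihood fit over all libraries, with a mean for each group. Each SE is the size of the log2 fold change over the root of its F statistic. The pipeline was tested on simulated data. No library pair within a group matched within counting noise (smallest chi-square 38.7 per degree of freedom). The members and lists were chosen with earlier results of these data known. Named by rule were the members, called genes of the ligand, receptor and enzyme lists, up to 3 called genes by p of each other list per comparison, and the 3 genes most alike to each member. Promoter windows are RefSeq's. Alternatives in scaling were RLE factors, or library size alone without TMM factors. The other alternatives were other filters, DESeq2 1.42.0, limma 3.58.1 voom, only the groups compared, a replicate block, marker covariates, protein-coding genes only and left-out libraries.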

Additional observations from a re-analysis of the deposited data

Results flagged for a closer look

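Each member was screened for a library far from the other 3 of its group, by the gap to its nearest neighbour over the group's range. Of 36 sets of 4 values 2 passed the 95% critical value, and chance alone passes about 1 in 20. Cxcl1 reached 4.30 CPM in C57BL/6J control replicate 5 while its other 3 libraries held 1.06 to 1.42 CPM, a ratio of 0.887. Cx3cr1 reached 10.1 CPM in C57BL/6J control replicate 3 while its other 3 libraries held 5.06 to 5.61 CPM, a ratio of 0.891.

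The AngII effect differed between the strains, by the test of the difference itself, for 4 members and for 6 other genes of the enzyme, signalling, interferon-stimulated and endothelial lists, each larger in C57BL/6J on the log2 scale. The differences were 1.5 for Cxcl12, 4.05 for Cxcl14, 0.91 for Cxcl16 and 1.88 for Cxcr4. Those of the other genes were 1.05 for Mmp2, 0.57 for Il1r1, 1.46 for Bst2, 1.83 for Oasl2, 2.82 for Irf7 and 2.94 for Kdr. Among marker lists, 9 of 16 macrophage and monocyte markers and 2 of 10 fibroblast markers also had a larger effect in C57BL/6J, and 9 of 10 smooth muscle markers had a lower one.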

How the results depend on the processing

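Over the 9 genes and 5 comparisons, settings other than a left-out library kept direction and call in 494 instances, lost the call in 13, gained one in 14 and turned the sign in 8. Leaving out 1 library gave 394, 19, 6 and 13 in that order. Most changes concerned Cxcl1, Cxcr4, Cxcl12 and Cx3cr1, and beyond those given with the results the cause was not tested. Cxcl10 in 129S6/SvEvTac rests on few counts, 0 to 21 per AngII library and 0 to 5 per control. AngII replicate 5, the deepest library, held 3.

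The count of members called for AngII in C57BL/6J was 5 with the adipocyte covariate, not set against calls over all genes, and 7 to 9 with 1 library left out. For AngII in 129S6/SvEvTac it was 0 with scaling by library size alone, 2 with only the groups compared, and 1 to 1 with a library left out. For the difference of effects it was 3 to 5, for strains with AngII 8 to 9, and for strains in controls 1 to 3 with a library left out (1 without 129S6/SvEvTac control replicate 1 or 4) and 5 (3 higher, 2 lower) with only the controls fitted. Over all genes, omissions of a single library gave 5740 to 7173 calls for AngII in C57BL/6J, against 6664. They gave 1402 to 1599 for AngII in 129S6/SvEvTac, against 2087. For strains with AngII they gave 4478 to 6088, against 5367, and for strains in controls 1354 to 1482, against 1783.

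Calls over all genes for the difference of effects were 2685 with DESeq2, 2670 with voom, 1102 with the adipocyte covariate, 1049 without C57BL/6J AngII replicate 1 and 129S6/SvEvTac AngII replicate 5 together, and 1039 to 2990 with 1 library left out, against 1706. The extremes came without 129S6/SvEvTac control replicate 2 and C57BL/6J AngII replicate 3, and without 129S6/SvEvTac AngII replicate 4 it was 1076. For AngII in 129S6/SvEvTac voom made 3324 calls, against 2087. For strains in controls voom made 3209 and only the controls fitted 2772, against 1783. Scaling by library size alone, without TMM factors, left 25.2% of calls higher for AngII in 129S6/SvEvTac, against 63.3%. It left 45.4% against 56.1% in C57BL/6J, and 65.2% against 53.6% for the difference.

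Signs turned for some values. Cxcr4 between strains in controls was -0.012 with scaling by library size alone, -0.33 with voom, and -0.42 to 0.25 with a library left out. The Cx3cr1 difference of effects was -0.15 with voom, -0.049 with the adipocyte covariate, -0.13 without both libraries, and -0.22 to 0.44 with 1 left out. Cxcl9 between strains in controls was 1.03 with the adipocyte covariate, against -1.22. Without 129S6/SvEvTac AngII replicate 2, AngII in 129S6/SvEvTac gave 0.013 for Cxcl1 and -0.0052 for Cxcl10, whose ranges with a library left out were -1.09 to 0.013 and -0.0052 to 2.78.

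Nothing in the labels says that a replicate number is shared between groups. Over 19 same-numbered pairs the correlation of deviations was -0.060 to 0.146, above 0.1 in 3. Its median was 0.017, against -0.0023 for pairs of other numbers. Such correlations cannot exclude a pairing of the samples. A fit with the replicate number as a block turned Cxcr4 between strains in controls to -0.32 and the Cx3cr1 difference to -0.081, called the Cxcl1 difference (3.15, adjusted p = 0.0258) and Cxcl12 between strains in controls (-0.47, adjusted p = 0.0473), and left Cxcl1 (1.62, adjusted p = 0.0888) and Cx3cr1 (1.57, adjusted p = 0.0584) uncalled there.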

Other observations

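C57BL/6J control replicate 3 stood out in several chemokine and leukocyte readouts, chosen for mention after the values were seen. It had the highest Cx3cr1 (10.1 CPM), Cxcr4 (3.41 CPM), Cxcr2 (2.27 CPM) and Ppbp (13.8 CPM) of the 4 C57BL/6J controls. Its summed markers were also the highest of those controls, at 33.6 CPM for neutrophils, 7.36 CPM for B cells and 703 CPM for macrophages and monocytes. Cxcl1 in this library, at 1.10 CPM, was within the range of the other controls.

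Cxcl16 per 1000 CPM of macrophage and monocyte markers, a ratio added after the values were seen, averaged 18.9 ± 3.49 CPM in C57BL/6J AngII libraries, against 22.1 ± 4.75 CPM in C57BL/6J controls (SD, n = 4 each). In 129S6/SvEvTac it averaged 26.6 ± 7.94 CPM in AngII libraries, against 24.3 ± 1.65 CPM in controls. The ranges overlapped in both strains, unlike those of Cxcr4.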
